A study of Apis mellifera with 27 samples.

Results

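The genes described here are 40 honey bee genes, identified by LOC and a number alone, whose transcripts were most abundant in the morning in tissue enriched for small Kenyon cells. They were chosen from their measured time courses. Of 12319 genes in the deposited count table, 11497 have such an identifier, and 7614 of these had a mean of at least 5 CPM, the unit in which each count is divided by its library's total and scaled to the same total in every library. For each of these genes a cosine with a period of 24 h was fitted by least squares to log2(CPM + 1) after the mean of each colony had been subtracted. A member had a fit that accounted for a share R2 of at least 0.4 of the variance and a fitted peak hour from 8 up to, but not including, 12. The fit with R2 of at least 0.4 was met by 418 unnamed genes at any hour, 40 of them in this window.

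The study captured tissue of the mushroom bodies by laser microdissection from foragers of Apis mellifera that had been trained to a time of day, and sequenced its polyadenylated RNA with a stranded kit. Foragers were collected at 06:00, 10:00, 14:00, 18:00 and 22:00 of day 11 and at 02:00 and 06:00 of day 12. They came from 2 colonies, tested in separate behavioural experiments, so colony and experiment cannot be told apart. The 27 libraries used here are 2 replicates for each colony and time point, except that 06:00 of day 11 has 1 library of colony 2. No treatment or genotype is given in the labels, which also do not say whether replicates came from separate bees, so the spread behind every p-value may be technical. There is no sample outside the time course that could serve as a baseline.

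Kenyon cells are the intrinsic neurons of the mushroom bodies, the paired insect brain centres that combine sensory input and serve learning and memory. Foraging honey bees can learn the hour at which a food source is rewarding, and this time memory rests on the circadian clock. In animal clocks, activators drive genes whose products later repress them, and many transcripts outside the clock itself follow with a daily course. The identifiers of the 40 members carry no gene name in the table or in the RefSeq gene table used here, so no role is given for them.

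The libraries differed in depth and in composition. Total counts lay between 5589770 and 12277539, and the 2 colony 2 libraries of 10:00 were among the shallow ones, with 5589770 and 6242597. On the first principal component of 7871 genes, which held 33.9% of the variance, 3 colony 2 libraries had the highest scores: replicate 2 of 06:00 on day 11 with 71.7, and replicates 1 and 2 of 10:00 with 51.0 and 41.6. The next score was 32.9, in replicate 1 of colony 2 at 14:00, and the others were at most 11.2. That 14:00 library lay nearer to the score of 41.6 than to that of 11.2, but it is kept in the runs without the 3. These libraries are called the 3 libraries that stand apart, and results that rest on them are given with and without them.

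The labelled cell population was checked against 3 small Kenyon cell markers, E74, Ecr and Tk, all of which were detected. Their summed level was 385 CPM in the 06:00 library that stands apart and 1185 and 1172 CPM in the 10:00 libraries that do. The other 24 libraries held 989.5 to 1971 CPM. Among these only replicate 2 of colony 2 at 06:00 of day 12 was lower than the 10:00 libraries that stand apart. The next lowest, with 1295 CPM, was replicate 2 of colony 1 at 10:00. The 10:00 libraries that stand apart were thus low as well, and low levels at 10:00 were not confined to them. Replicate 1 of colony 1 at 10:00 held 1676 CPM. Because these are bulk samples, fewer cells of a type and less RNA per cell cannot be told apart.

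No matched marker of another cell type reached R2 of 0.4. The photoreceptor marker Uvop came close, with R2 of 0.384 and a peak hour of 1.2, and so did Eaat-2. Eaat-2, a glutamate transporter and the 1 of 2 listed glial markers that could be matched, had R2 of 0.398 and a peak hour of 10.7. Its level was 71.8 to 169 CPM at 10:00 and 28.7 to 57.2 CPM at 02:00, and it was highest, at 205 CPM, in the 06:00 library that stands apart. The summed level of 7 troponin genes, which mark muscle, was 96.4 and 90.03 CPM at 10:00 in colony 1, 676 and 183 CPM at that time in colony 2, and 19.2 to 174.5 CPM at 02:00, and 1 of the 7 was at 0 in all libraries of 10:00. Photoreceptor, hypopharyngeal gland and fat body lists, with 4 of 4, 9 of 9 and 6 of 7 genes matched, summed to 42.2 to 399, 20.8 to 71.0 and 14.6 to 220.4 CPM over all libraries, and at 10:00 to 42.8 to 360, 22.3 to 71.0 and 18.1 to 57.0 CPM. Of the 2 matched markers of large and middle Kenyon cells, Mblk-1 and Camkii, the summed level was 4735 to 8133 CPM at 10:00 and 2191 to 9215 CPM over all libraries. The part of these cell types in the members' courses was not tested.

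Good cosine fits were not evenly spread over the day. Among unnamed genes with a fitted peak from 8 to 12 h, 40 of 1275 (3.14%) had an R2 of at least 0.4, against 226 of 2017 (11.2%) from 0 to 4 h, 77 of 998 (7.72%) from 12 to 16 h, 54 of 1657 (3.26%) from 20 to 24 h, 15 of 809 (1.85%) from 16 to 20 h and 6 of 858 (0.699%) from 4 to 8 h. The share in the morning window was thus above those of 4 to 8 h and 16 to 20 h, close to that of 20 to 24 h, and below the other two. Peaks of the members lay between 8.20 and 11.9 h with a median of 11.3 h. Thus 24 of 40 peaked at 11 h or later, 14 from 10 to 11 h, and 2 before 10 h, so most sat in the last hour before the end of the window. R2 ranged from 0.404 to 0.740 with a median of 0.471. Just inside the R2 limit were LOC410189 (0.404) and LOC410059 (0.408), and just outside it LOC102656621 (0.3996) and LOC551954 (0.397). At the early end of the window LOC100577028 (8.20 h) and LOC552326 (9.37 h) were the nearest members, while LOC100578260 (6.94 h) and LOC725905 (6.89 h) fell before it. At the late end LOC724177 and LOC551619 (11.9 and 11.8 h) were inside, and LOC100576700 (12.03 h) and LOC408867 (12.05 h) were outside.

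The fitted range, from the trough of the cosine to its peak, had a median of 0.87 on the log2 scale, or 1.83-fold on the scale of CPM + 1. It was at least 2-fold in 15 members, from 1.5-fold to 2-fold in 16 and under 1.5-fold in 9, down to 1.26-fold in LOC409963. The spread between the replicates of 1 colony and time point had a median SD of 0.27 on the log2 scale in the members, from 0.10 to 0.95, against 0.22 in all 7614 unnamed genes. The fitted range was at least 2.40 times this SD in every member. The R2 limit of the rule largely builds this in, so nothing is read from it. Mean levels over all libraries ran from 5.96 to 1252 CPM with a median of 60.6 CPM, and 36 members had a mean of at least 20 CPM. Since measured courses chose the members, the values over time in the following paragraphs are a description and carry no test.

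**Figure D1:**
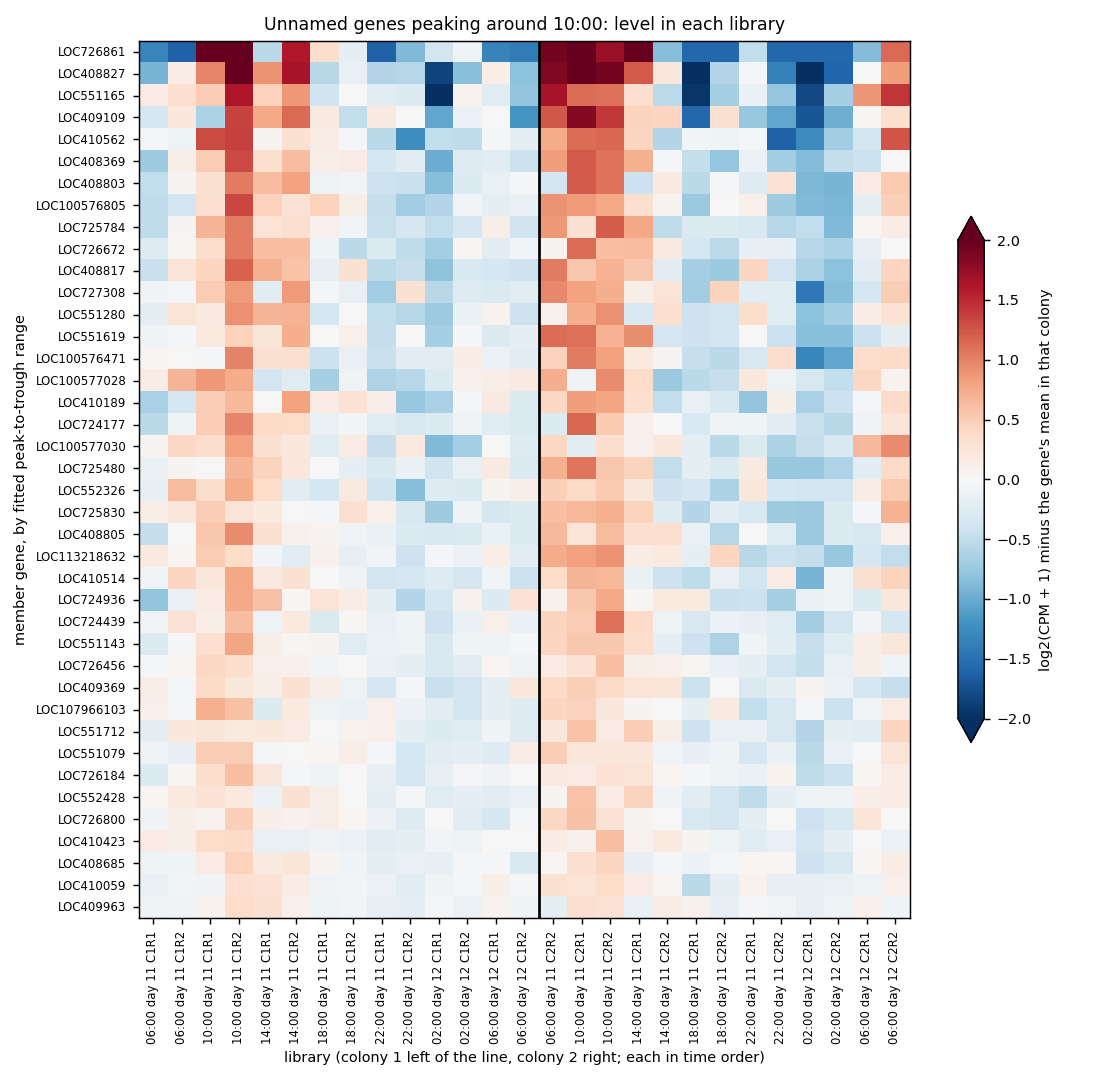
Deviation of each of the 40 members (rows) from its colony mean on the log2(CPM + 1) scale in the 27 libraries (columns, ordered by colony and time). All 40 members were on average above 0 at 10:00 in both colonies, and none was on average above 0 at 02:00.

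The common course was high at 10:00 and low through the night. Of the 40 members, 39 had their highest time-point mean at 10:00 and 1, LOC100577030, at 06:00 of day 12. The lowest mean was at 02:00 in 30 members, at 22:00 in 7 and at 18:00 in 3. In colony 1 the median deviation of the members from their colony mean was -0.06 at 06:00 of day 11, 0.53 at 10:00, 0.23 at 14:00, -0.04 at 18:00, -0.24 at 22:00, -0.28 at 02:00 and -0.15 at 06:00 of day 12. In colony 2 it was 0.44, 0.68, 0.12, -0.31, -0.23, -0.51 and 0.10 at the same times. The colonies thus shared the 10:00 maximum and the night minimum. At 06:00 colony 2 was above its mean on both days and colony 1 below it, but this rests on single libraries. The colony 2 value at 06:00 of day 11 is 1 library, one of those that stand apart. At 06:00 of day 12 replicate 2 of colony 2 was at 0.23, with 31 of 40 members above their colony mean. Replicate 1 was at -0.01, with 19 of 40 above it.

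Counted library by library, the separation from 10:00 grew toward the night. All 4 libraries of 10:00 were above all those of 02:00 in 36 of 40 members, where 4.56% of unnamed genes have such an order. This held against 22:00 in 30 members (background 2.6%), against 18:00 in 28 (2.04%) and against 06:00 of day 12 in 19 (2.73%). Against the neighbouring times it held in few members, 7 for 06:00 of day 11 (3.14%) and 4 for 14:00 (1.02%), so in most members at least 1 library of 06:00 or 14:00 reached the 10:00 values. The median log2 difference of 10:00 from the other time was 1.03 for 02:00, 0.86 for 22:00, 0.78 for 18:00, 0.58 for 06:00 of day 12, 0.45 for 14:00 and 0.39 for 06:00 of day 11, against medians of -0.06, -0.07, -0.03, -0.09, -0.03 and -0.11 over the unnamed genes. Nothing is read from these counts, since the rule used the same libraries.

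Within 1 colony the pattern was less uniform. Both 10:00 libraries were above all 12 other libraries of colony 1 in 13 of 40 members (background 4.75%). In colony 2 they were above the other 11 libraries in 16 of 40 members (background 2.26%), and in 24 of 40 (background 4.47%) when the 06:00 library that stands apart was not counted. The highest library of all was one of 10:00 in 36 members in colony 1 (background 22.6%) and in 31 in colony 2 (background 14.4%).

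In colony 1 the 10:00 replicates were unequal. The level in replicate 2 exceeded that in replicate 1 in 32 of 40 members, with a median ratio of 1.33 and a range from 0.858 to 3.99, against a median of 1.03 over the unnamed genes. The ratio was over 1.5 in 13 members. Eaat-2 had a ratio of 2.36 between the same libraries. Replicate 1 was above every colony 1 library from 18:00 to 06:00 of day 12 in 32 of 40 members (background 15.8%).

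LOC408827 had the largest range among the members with a mean of at least 20 CPM, 3.05 on the log2 scale, with its peak at 11.3 h and R2 of 0.608. In colony 1 its level in CPM (replicate 1, then 2) was 29.0 and 62.4 at 06:00 of day 11, 111 and 317 at 10:00, 105 and 178 at 14:00, 38.1 and 50.6 at 18:00, 37.3 and 37.3 at 22:00, 14.9 and 31.2 at 02:00, and 61.6 and 31.4 at 06:00 of day 12. In colony 2 it was 215 at 06:00 of day 11, 252 and 221 at 10:00, 137 and 68.0 at 14:00, 13.1 and 38.5 at 18:00, 56.5 and 22.1 at 22:00, 9.31 and 18.8 at 02:00, and 58.3 and 104 at 06:00 of day 12. All 4 libraries of 10:00 were above every library from 18:00 on, and they overlapped with those of 14:00 and with the 06:00 library of colony 2. The mean was 225 ± 85.8 CPM (SD, n = 4) at 10:00 and 18.5 ± 9.27 CPM (SD, n = 4) at 02:00.

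LOC410562 had a range of 1.75 and less spread among its 10:00 libraries, with a peak at 10.8 h and R2 of 0.579. In colony 1 it had 20.7 and 19.7 CPM at 06:00 of day 11, 53.7 and 56.1 at 10:00, 22.0 and 26.3 at 14:00, 23.6 and 20.8 at 18:00, 14.2 and 8.33 at 22:00, 14.8 and 14.5 at 02:00, and 20.5 and 18.2 at 06:00 of day 12. In colony 2 it had 32.4 CPM at 06:00 of day 11, 42.4 and 43.4 at 10:00, 25.9 and 12.3 at 14:00, 18.2 and 17.8 at 18:00, 18.4 and 5.48 at 22:00, 7.25 and 11.3 at 02:00, and 14.4 and 46.8 at 06:00 of day 12. The 10:00 libraries overlapped with 1 library only, replicate 2 of colony 2 at 06:00 of day 12. The mean was 48.9 ± 6.98 CPM at 10:00 and 12.0 ± 3.51 CPM at 02:00 (SD, n = 4 each). The colony 1 replicates of 10:00 were close to each other in this gene, unlike in LOC408827.

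LOC726672 had the second highest R2, 0.652, with a range of 1.17 and a peak at 11.5 h. In colony 1 it had 45.1 and 54.9 CPM at 06:00 of day 11, 69.3 and 110.4 at 10:00, 82.2 and 82.6 at 14:00, 51.0 and 36.7 at 18:00, 44.5 and 37.5 at 22:00, 33.2 and 55.3 at 02:00, and 46.3 and 51.8 at 06:00 of day 12. In colony 2 it had 69.6 CPM at 06:00 of day 11, 147 and 102 at 10:00, 103 and 76.0 at 14:00, 52.0 and 46.5 at 18:00, 59.7 and 59.4 at 22:00, 44.9 and 43.0 at 02:00, and 59.3 and 66.7 at 06:00 of day 12. All libraries of 10:00 and 14:00 were above all libraries from 18:00 on, so the high phase covered both times.

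LOC408369 had a range of 1.41, a peak at 11.7 h and R2 of 0.548. In colony 1 it had 25.9 and 46.9 CPM at 06:00 of day 11, 61.6 and 109 at 10:00, 54.0 and 66.4 at 14:00, 47.4 and 48.2 at 18:00, 33.5 and 37.0 at 22:00, 21.0 and 35.9 at 02:00, and 36.5 and 31.5 at 06:00 of day 12. In colony 2 it had 99.6 CPM at 06:00 of day 11, 131 and 119 at 10:00, 91.5 and 54.2 at 14:00, 39.6 and 32.1 at 18:00, 50.8 and 33.6 at 22:00, 29.7 and 39.4 at 02:00, and 40.6 and 55.3 at 06:00 of day 12. The 10:00 libraries were above every library from 18:00 on and overlapped with those of 06:00 of day 11 and 14:00.

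**Figure D2:**
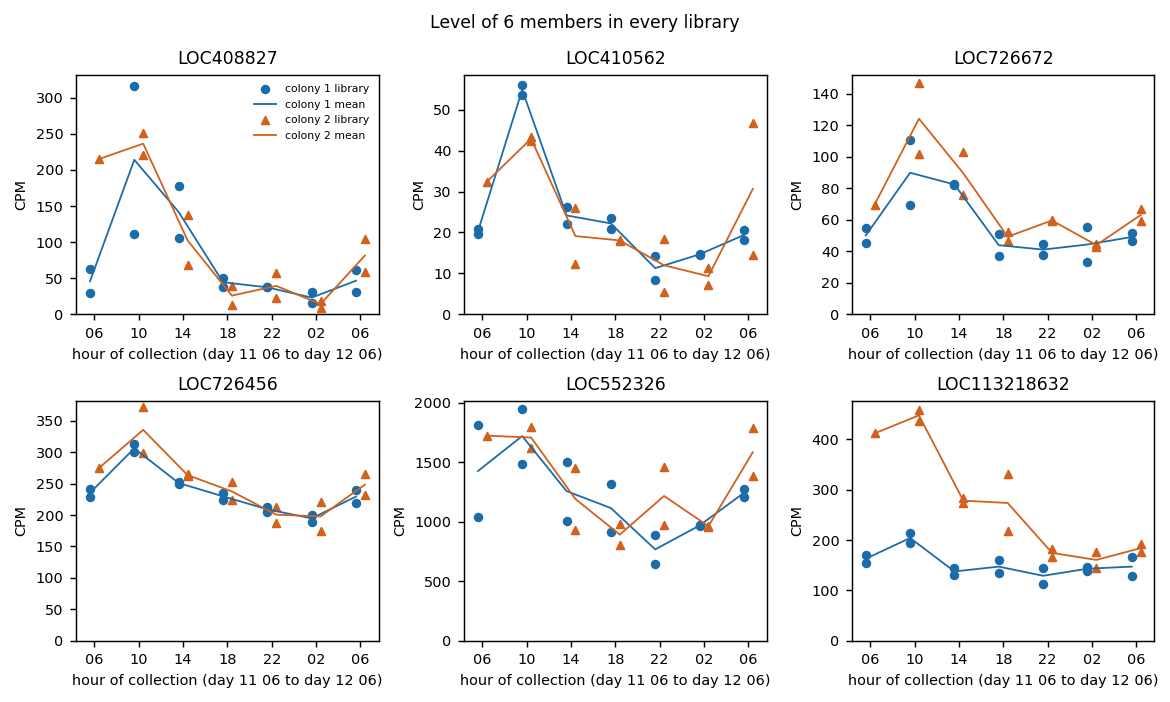
Level in CPM of selected members in every library against the hour of the course, with colony 1 and colony 2 as separate symbols. In LOC410562 the 4 libraries of 10:00 lie between 42.4 and 56.1 CPM, and in LOC408827 they spread from 111 to 317 CPM.

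In LOC551165 and LOC409109 single libraries departed from the common course. In colony 1 LOC551165 had 26.6 and 29.8 CPM at 06:00 of day 11, 33.5 and 74.03 at 10:00, 32.9 and 43.9 at 14:00, 17.5 and 23.5 at 18:00, 20.3 and 19.3 at 22:00, 4.72 and 24.9 at 02:00, and 19.7 and 13.2 at 06:00 of day 12. In colony 2 LOC551165 had 83.8 CPM at 06:00 of day 11, 57.8 and 56.9 at 10:00, 33.1 and 17.7 at 14:00, 6.01 and 16.0 at 18:00, 23.7 and 14.7 at 22:00, 6.77 and 16.1 at 02:00, and 48.6 and 72.1 at 06:00 of day 12. Its highest libraries in colony 2 were thus of 06:00 on either day, above both of 10:00.

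In colony 1 LOC409109 had 107 and 159.7 CPM at 06:00 of day 11, 88.2 and 352 at 10:00, 232 and 302 at 14:00, 156 and 97.5 at 18:00, 155 and 139 at 22:00, 66.1 and 126 at 02:00, and 138 and 59.1 at 06:00 of day 12. In colony 2 LOC409109 had 548 CPM at 06:00 of day 11, 826 and 615 at 10:00, 314 and 309 at 14:00, 76.9 and 286 at 18:00, 135 and 112 at 22:00, 69.6 and 117 at 02:00, and 237 and 288 at 06:00 of day 12. Replicate 1 of colony 1 at 10:00 exceeded only a library of 02:00 and one of 06:00 of day 12 in its colony, so the colony 1 peak of this gene, at 14.0 h, rests on 14:00 and on the other 10:00 library. The ranges over the whole course were 1.86 for LOC551165 and 1.77 for LOC409109.

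The other members with large ranges and a mean of at least 20 CPM were LOC100576805 (1.24), LOC725784 (1.17), LOC408817 (1.16) and LOC551280 (1.09). In colony 1 LOC100576805 had 19.1 and 20.9 CPM at 06:00 of day 11, 34.5 and 71.3 at 10:00, 38.5 and 34.0 at 14:00, 38.4 and 30.1 at 18:00, 19.7 and 16.8 at 22:00, 18.1 and 26.7 at 02:00, and 24.1 and 25.01 at 06:00 of day 12. In colony 2 LOC100576805 had 53.7 CPM at 06:00 of day 11, 52.2 and 48.7 at 10:00, 35.6 and 29.5 at 14:00, 16.6 and 28.3 at 18:00, 30.6 and 17.0 at 22:00, 14.99 and 14.7 at 02:00, and 25.04 and 39.9 at 06:00 of day 12. The 10:00 libraries were the top ones only in part, since replicate 1 of colony 1 lay below single libraries of 14:00 and 18:00.

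In colony 1 LOC725784 had 21.4 and 32.1 CPM at 06:00 of day 11, 49.8 and 63.8 at 10:00, 37.5 and 38.9 at 14:00, 33.2 and 29.8 at 18:00, 22.4 and 24.3 at 22:00, 21.7 and 24.2 at 02:00, and 33.5 and 23.1 at 06:00 of day 12. In colony 2 LOC725784 had 65.7 CPM at 06:00 of day 11, 44.4 and 83.5 at 10:00, 61.8 and 24.7 at 14:00, 29.0 and 29.4 at 18:00, 28.3 and 23.6 at 22:00, 24.9 and 18.8 at 02:00, and 36.4 and 39.5 at 06:00 of day 12. Both 10:00 libraries were the highest of colony 1, and all 4 were above every library from 18:00 on.

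In colony 1 LOC408817 had 179.8 and 298 CPM at 06:00 of day 11, 332 and 557 at 10:00, 401 and 364 at 14:00, 219 and 303 at 18:00, 170.1 and 178 at 22:00, 141 and 198 at 02:00, and 193 and 184 at 06:00 of day 12. In colony 2 LOC408817 had 576 CPM at 06:00 of day 11, 409 and 457 at 10:00, 407 and 241 at 14:00, 178 and 169 at 18:00, 381 and 217 at 22:00, 182 and 159 at 02:00, and 239.9 and 378 at 06:00 of day 12. The highest library of colony 2 was that of 06:00 on day 11.

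In colony 1 LOC551280 had 60.3 and 82.8 CPM at 06:00 of day 11, 77.4 and 129 at 10:00, 109.8 and 111 at 14:00, 53.2 and 68.6 at 18:00, 48.0 and 45.7 at 22:00, 41.0 and 62.3 at 02:00, and 71.8 and 51.1 at 06:00 of day 12. In colony 2 LOC551280 had 79.0 CPM at 06:00 of day 11, 123 and 142 at 10:00, 60.0 and 93.7 at 14:00, 55.8 and 57.8 at 18:00, 94.9 and 62.5 at 22:00, 41.8 and 46.0 at 02:00, and 82.3 and 91.4 at 06:00 of day 12. In colony 2 the 10:00 libraries stood clear of the others, and in colony 1 replicate 1 of 10:00 lay below both libraries of 14:00.

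The closest cosine was that of LOC726456, with R2 of 0.740, a small range of 0.61 and a peak at 11.3 h. In colony 1 LOC726456 had 229 and 242 CPM at 06:00 of day 11, 312 and 299.9 at 10:00, 252 and 250.1 at 14:00, 225 and 235 at 18:00, 213 and 206 at 22:00, 189.5 and 199.8 at 02:00, and 240.0 and 219 at 06:00 of day 12. In colony 2 LOC726456 had 275 CPM at 06:00 of day 11, 299 and 372 at 10:00, 265 and 262 at 14:00, 252 and 223 at 18:00, 213 and 188 at 22:00, 175 and 220.3 at 02:00, and 266 and 231 at 06:00 of day 12. All 4 libraries of 10:00 were above the 23 others. This was so in 2 of 40 members, LOC726456 and LOC724177, and in 13 of 7614 unnamed genes (0.171%). In LOC724177 the 10:00 libraries held 136, 191, 207 and 134 CPM.

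The 5 members with the highest counts had ranges from 0.33 to 0.86. LOC552326 had 1489, 1951, 1619 and 1797 CPM at 10:00 (colony 1 replicates 1 and 2, then colony 2) and 973, 963, 965 and 958 CPM at 02:00. LOC551143 had 951, 1293, 1101 and 1104 CPM at 10:00 and 603, 705, 549 and 638 CPM at 02:00. In both genes the 10:00 and 02:00 libraries did not overlap. LOC107966103 had 621, 573, 602 and 509.7 CPM at 10:00 against 324, 290.0, 432 and 324 CPM at 02:00. LOC409963 had 402, 498, 460.3 and 447 CPM at 10:00 against 378, 354, 328 and 342 CPM at 02:00, and LOC408685 had 347, 428, 388 and 417 CPM against 275, 301, 230.1 and 249.8 CPM. The 10:00 libraries of these 3 genes were likewise above those of 02:00. LOC552326 peaked earliest of the 5, at 9.37 h, and its 06:00 libraries of day 11 reached 1811 CPM in colony 1 and 1723 CPM in colony 2.

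LOC100577028 was the earliest member, with a peak at 8.20 h. In colony 1 it had 22.6 and 33.1 CPM at 06:00 of day 11, 38.0 and 34.6 at 10:00 and 15.4 and 17.1 at 14:00, and in colony 2 it had 38.7, 22.0 and 45.2, and 29.99 and 13.4 CPM at these times. In colony 1 both libraries of 14:00 were below both of 10:00 and both of 06:00. LOC100577030, the member whose highest mean was not at 10:00, had 31.8, 26.5, 45.3 and 56.1 CPM at 06:00 of day 12 and 41.0, 57.0, 24.5 and 36.7 CPM at 10:00. Its order thus differed between the colonies, with 10:00 higher in colony 1 and 06:00 of day 12 higher in colony 2.

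LOC726861 had the largest fitted range of all, 3.35, but a mean of 5.96 CPM, and was singled out after its values were seen. It held 31.3, 48.8, 19.0 and 8.81 CPM at 10:00, and at 02:00 the highest of its libraries held 1.89 CPM. It was at 0 in 7 libraries, where a count of 0 allows up to 3 counts, or up to 0.514 CPM in the shallowest of them, for counting error only. Its fitted range depends on the pseudocount of 1 for this reason. It was the 1 member with a count of 0 in any library.

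The remaining members with ranges of at least 2-fold were LOC408803, LOC727308, LOC551619 and LOC100576471. Of the members with smaller ranges, LOC725480, LOC725830, LOC410514, LOC409369 and LOC551712 are described by their fits alone. Their ranges lay between 0.58 in LOC551712 and 0.88 in LOC725480, and their peaks between 10.2 and 11.7 h.

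Leaving out the 3 libraries that stand apart left 23 unnamed genes that met the rule, 14 of them members. These 14 were LOC408827, LOC410562, LOC725784, LOC726672, LOC551280, LOC100577028, LOC100577030, LOC552326, LOC724439, LOC726456, LOC551079, LOC726184, LOC552428 and LOC410423. Of the other members, 17 no longer reached R2 of 0.4, with values from 0.279 to 0.398, and 9 had a later peak, between 12.0 and 13.2 h. The median range of the 40 members became 0.72 and their median peak 11.8 h, and the range was smaller in 39 of 40. When each library was left out in turn, 16 members met the rule in all 27 runs, and 13 of these also met it without the 3 libraries. LOC408685 was the member that met it least often, in 13 of 27 runs.

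The fitted peaks of most members were later in colony 1 than in colony 2. With each colony fitted alone, the median peak was 12.2 h in colony 1 (8.50 to 14.0 h) and 10.4 h in colony 2 (7.78 to 11.8 h). Colony 2 was earlier in 36 of 40 members, a count not repeated without the 3 libraries that stand apart. The same share over all unnamed genes was not computed, so the shift is not shown to be particular to the members. In colony 1, 16 members peaked in the 8 to 12 h window and 24 from 12 to 14 h. In colony 2, 39 peaked in the window and 1 before it, and 15 were in it in both colonies. The fitted range was larger in colony 2 in 29 of 40 members, with medians of 0.82 in colony 1 and 0.98 in colony 2. Without the 3 libraries that stand apart, all of colony 2, the median peak of colony 2 was 10.9 h, its median range 0.64, and 29 members peaked in the window.

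**Figure D3:**
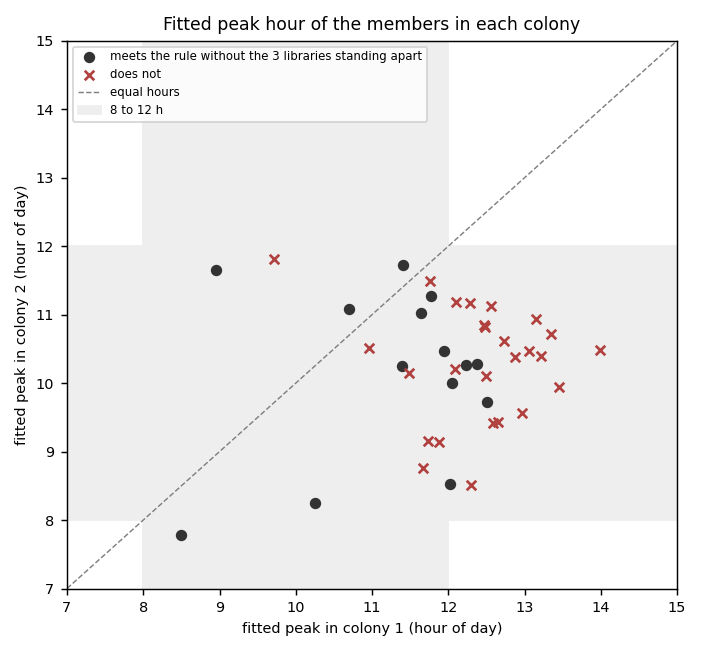
Fitted peak hour of each of the 40 members in colony 1 (x axis) and colony 2 (y axis), with the window from 8 to 12 h shaded, circles for members that meet the rule without the 3 libraries that stand apart, and crosses for the others. In colony 2 39 members lie in the window and in colony 1 16 do.

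Whether the course differed between the colonies was tested by a term of colony by cosine in edgeR's quasi-likelihood fit of all 9816 genes kept by the filter. No member was called at a Benjamini-Hochberg adjusted p under 0.05 (background 0.0204%), and 4 of 40 had an unadjusted p under 0.05, against 13.2% of all genes. DESeq2 gave an adjusted p to 21 of 40 members and called 0 of them, and it called 1.85% of the 4487 genes with such a p. The 4 members with a low unadjusted p were LOC725830, LOC551165, LOC409109 and LOC113218632. The rule favoured courses shared by both colonies, so a low count is partly built in. Without the 3 libraries that stand apart edgeR called 1 of 40 members, LOC113218632, with an adjusted p of 0.0378, where 1.24% of all genes were called. The earlier peaks of colony 2 were therefore not shown to differ gene by gene.

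The rule subtracted each colony's mean and so did not use the level difference between the colonies directly. This difference was tested over all genes with the time point as a covariate. It is not independent of the rule, since the 3 libraries that stand apart are all of colony 2 and were collected in the morning. A gene raised in them can gain both a morning fit and a higher level in colony 2. A surplus of members higher in colony 2 may therefore be partly built in, and its size was not tested. In edgeR's quasi-likelihood test 12 of 40 members were called, all higher in colony 2 and none lower. Over all 9816 genes 24.9% were called, 10.6% higher and 14.3% lower in colony 2. DESeq2 called 14 of 40 members, again all higher. It called 29.9% of 9816 genes, 1364 of them higher and 1573 lower in colony 2. The members' log2 difference, colony 2 minus colony 1, had a median of 0.18 and was above 0 in 31 of 40, against a median of -0.04 and 45.5% above 0 over all genes. Without the 3 libraries that stand apart 4 of 40 members were called, all higher in colony 2. Of 9992 genes tested then, 12.3% were called, 501 genes higher and 726 lower. The members' median was then 0.09 with 26 of 40 above 0, against -0.03 and 44.6% above 0 over all genes. When libraries of the same colony and time were summed, edgeR called 0 members and 0.235% of all genes, and 15 of 40 members had an unadjusted p under 0.05, against 24.5% of all genes.

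LOC113218632 had the smallest adjusted p among the members. It held 113 to 214 CPM in colony 1, with a median of 146 CPM, and 145 to 459.6 CPM in colony 2, with a median of 217 CPM. At 10:00 it held 214 and 194 CPM in colony 1 and 437 and 459.6 CPM in colony 2, and at 02:00 147 and 139 CPM and 176 and 145 CPM. Colony 2 had the higher mean at 7 of 7 time points, though the ranges over the whole course overlapped. Its log2 difference was 0.79 (SE 0.113, adjusted p of 6.38e-05, edgeR), and it was 0.61 (adjusted p of 0.00148) without the 3 libraries.

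LOC409109 had the largest difference, but it rested on few libraries. Its lowest, median and highest levels were 59.1, 138 and 352 CPM in colony 1 and 69.6, 286 and 826 CPM in colony 2. The difference was 0.82 (SE 0.280, adjusted p of 0.0381, edgeR), was called in 14 of 27 runs that left out 1 library, and was 0.41 (adjusted p of 0.407) without the 3 libraries. The ranges overlapped widely, and the top libraries were those of 06:00 and 10:00 in colony 2.

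LOC727308 had 3.32, 5.45 and 11.6 CPM as lowest, median and highest level in colony 1 and 2.90, 10.5 and 19.6 CPM in colony 2, with a difference of 0.76 (SE 0.218, adjusted p of 0.0121, edgeR). Colony 2 was higher at 6 of 7 time points. LOC408369 had 21.0, 42.0 and 109 CPM in colony 1 and 29.7, 50.8 and 131 CPM in colony 2, and LOC724936 had 8.93, 16.8 and 27.9 CPM and 12.8, 21.2 and 36.0 CPM. Their differences were 0.43 (SE 0.138, adjusted p of 0.0239) and 0.40 (SE 0.132, adjusted p of 0.0253) in edgeR's test, at 6 and 7 of 7 time points. None of these 3 was called without the 3 libraries that stand apart, with adjusted p of 0.111, 0.306 and 0.228.

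The other members called were LOC724439 (0.36), LOC726672 (0.35), LOC726800 (0.31), LOC408805 (0.28), LOC410423 (0.28), LOC107966103 (0.27) and LOC726184 (0.26), all higher in colony 2. Of these, LOC410423, LOC107966103 and LOC726184 were also called without the 3 libraries, with differences of 0.27, 0.27 and 0.25. The lowest values among the members were -0.26 in LOC100576471 and in LOC408803, neither called. Eaat-2 was at 205 CPM and the small Kenyon cell markers at 385 CPM in the colony 2 library of 06:00 on day 11. Of the single libraries left out, this one gave the lowest count of calls, 8, where 20.9% of all genes were called. The part of cell composition in the colony difference was not tested.

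**Figure D4:**
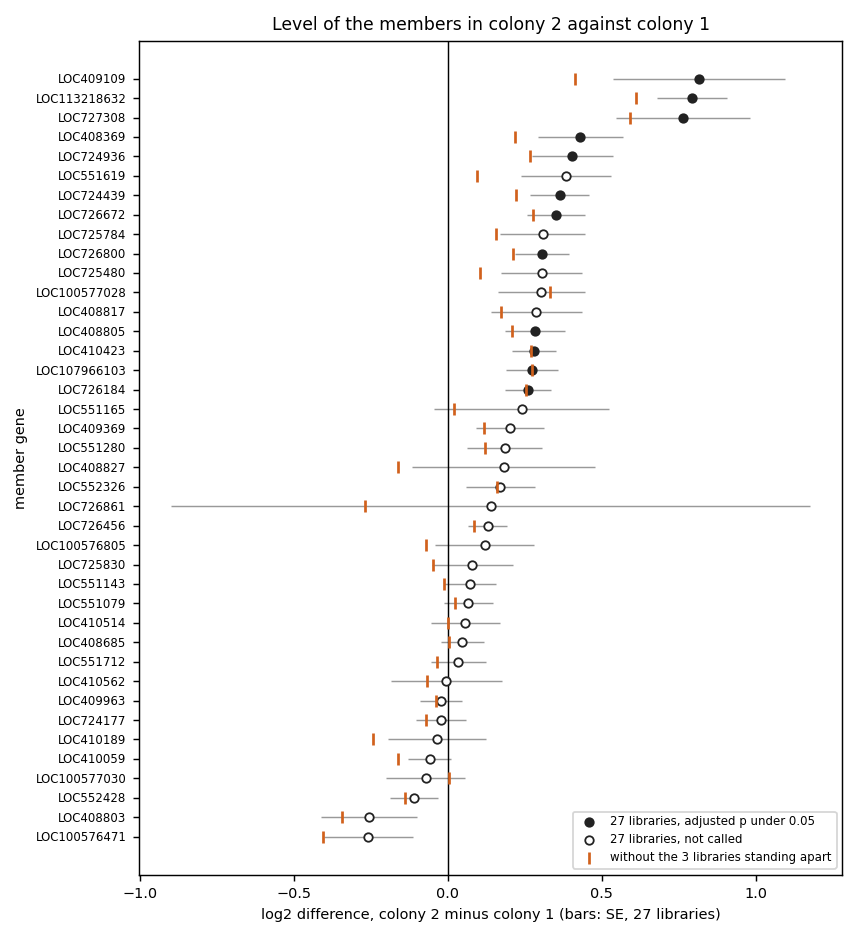
Log2 difference of colony 2 minus colony 1 for each of the 40 members, in all 27 libraries (points, with bars for the standard error) and without the 3 libraries that stand apart. 31 of 40 members lie above 0 with all libraries and 26 without the 3, and 12 and 4 of them pass the adjusted p of 0.05.

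The 2 samplings of 06:00, which a cosine of 24 h places at the same point, were compared in the same fit. A large difference between them lowers R2, so a low count among the members is partly built in. In edgeR's quasi-likelihood test 0 of 40 members and 0 of 9816 genes (background 0%) were called, and 2 members and 1138 genes (11.6%) had an unadjusted p under 0.05. DESeq2 gave an adjusted p to 10 of 40 members and 1633 genes and called 0 of either. Without replicate 1 of colony 1 at 06:00 of day 11, edgeR called 366 genes (3.64%) and still 0 members, 7 of which had an unadjusted p under 0.05. With all 27 libraries the members' log2 difference, day 12 minus day 11, had a median of -0.20, with 6 of 40 above 0. Over all genes the median was 0.02, with 51.9% above 0. Without the 3 libraries that stand apart, 24 of 40 were above 0 and the median was 0.04, against 52.4% of all genes above 0. With the colony 2 library of 06:00 on day 11 alone left out, 20 of 40 were above 0, against 54.1% of all genes. The members' median was then 0.008, so their lower level on day 12 rested on that library. The 2 members with an unadjusted p under 0.05 were LOC113218632 with -0.60 (SE 0.220) and LOC551619 with -0.78 (SE 0.284), both at an adjusted p of 0.369 in edgeR's test. LOC551619 held 38.5, 40.2 and 109 CPM at 06:00 of day 11 and 33.1, 36.1, 36.6 and 43.3 CPM at 06:00 of day 12, the high value being that of colony 2.

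For completeness, the same fit called 24 of 40 members over the 7 time points (background 2.29%) and 38 of 40 by a common cosine (background 4.31%) in edgeR's test. These are the contrast that chose the members, and nothing is read from them.

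**Figure D5:**
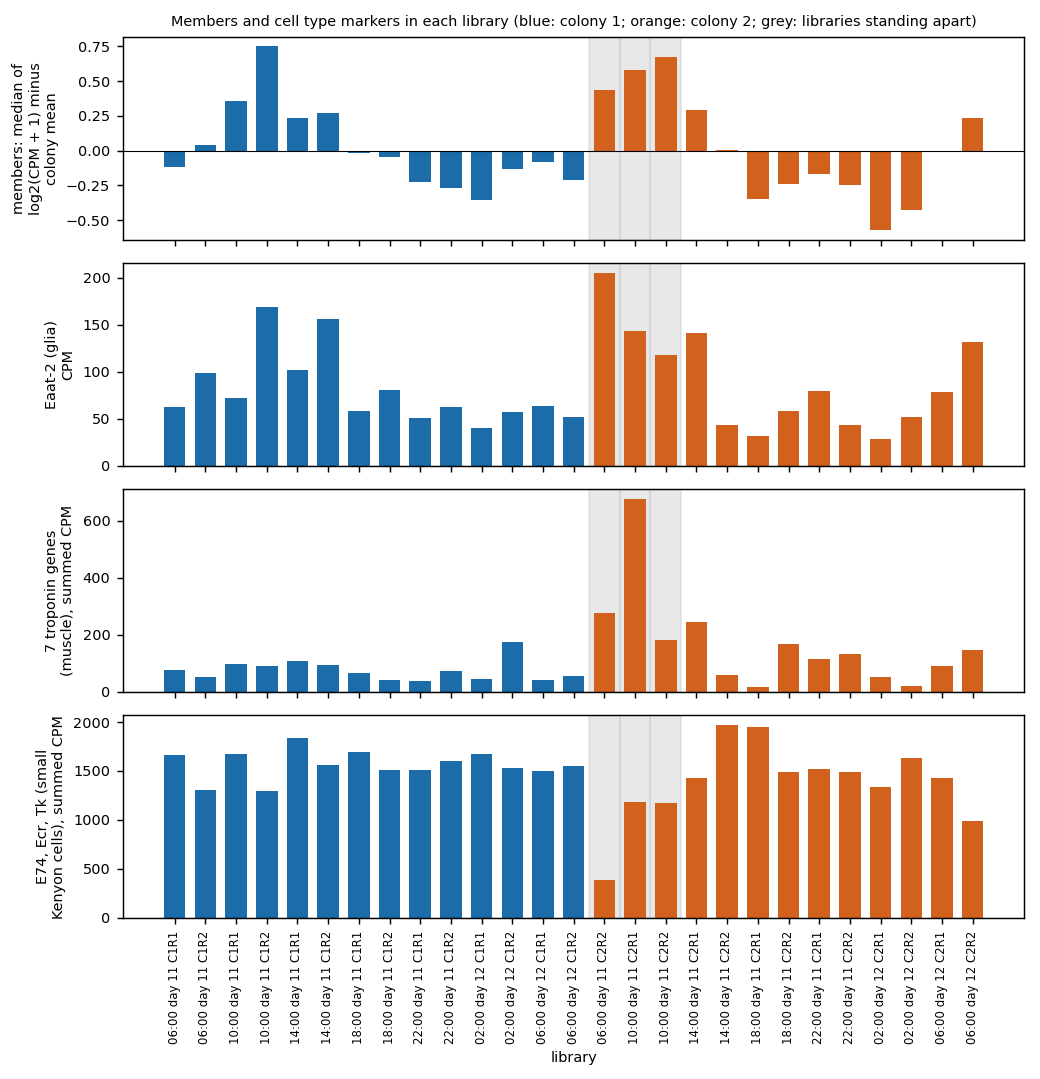
Median deviation of the 40 members from their colony means (log2 scale) in each library beside the summed CPM of marker lists in the same library. The members' median is highest in the 4 libraries of 10:00 and in the 06:00 library of colony 2 on day 11, where Eaat-2 is at 205 CPM.

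Of the annotation, only gene type, overlapping spans and neighbouring genes were examined, and functions were not. In a gene table from RefSeq (Amel_HAv3.1), all 40 identifiers were found, 38 (95%) as protein-coding genes and 2 (5%) as long noncoding RNA genes, against 96.6% and 3.26% of the 7614 unnamed genes. The noncoding members were LOC113218632 and LOC107966103, both described above. In 16 of 40 members the annotated span overlapped that of another gene, and since the strand setting of the counting is not given in the sources used here, reads of such genes may be shared. The share of such overlaps over all unnamed genes was not computed.

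Few members lie near each other. LOC725784 and LOC100576805 have 1 annotated gene between them, LOC410530, which overlaps LOC725784 and had R2 of 0.286 and a peak at 8.36 h. LOC100577030 and LOC726184, and LOC552326 and LOC724177, are each separated by 4 genes. LOC726184 held 94.8, 113, 95.5 and 104 CPM at 10:00 and 66.1, 72.6, 59.8 and 63.1 CPM at 02:00. Of 48 genes of a mean of at least 5 CPM that flank a member, 1 had R2 of at least 0.4, LOC726227 beside LOC726184, and its peak was at 0.81 h. Among all unnamed genes of that mean, 418 of 7614 had such an R2 at any peak hour.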

How the data were processed

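The authors deposited raw counts per gene for each library, from polyadenylated RNA and a stranded kit, per the labels' protocols. Trimmomatic, FastQC, STAR, featureCounts and DESeq2 are named, without versions, per the submitters' processing notes. The genome build, annotation and strand setting are not given in the sources used here, and no coordinates are printed. Gene types and neighbours came from a RefSeq table of Amel_HAv3.1.

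Members were found by least squares on log2(CPM + 1) with a pseudocount of 1. Tests used R 4.3.3 and edgeR 4.0.16 (filterByExpr by time point, TMM, robust glmQLFit, glmQLFTest, 9816 genes, Benjamini-Hochberg, called under 0.05), with DESeq2 1.42.0 as an alternative. All 27 libraries entered each fit. Standard errors (SE) were derived from the F statistic. The test scripts were tested on simulated data. The floor of 3 counts for a count of 0 covers counting error only.

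The members, lists and tests were chosen with earlier results of these data known. Genes named were the 10 members with the largest range of those of at least 20 CPM, the 5 with the highest R2 or mean, up to 5 called per test, the noncoding members, those nearest a threshold and neighbouring pairs. Alternatives were other scalings, pseudocounts, filters and thresholds, DESeq2, single colonies, summed libraries, a replicate block and left-out libraries.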

Additional observations from a re-analysis of the deposited data

Results flagged for a closer look

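In the 26 named members, 156 groups of 4 libraries of 1 time point were screened for a library far from the other 3, where its gap to the nearest exceeded 0.829 of the group's range. Chance flags about 1 in 20 such groups, and 6 were found. At 14:00 replicate 1 of colony 1 was low in LOC409109, at 232.1 CPM against 301.6 to 313.9 CPM, and in LOC107966103, at 312.5 CPM against 435.2 to 455.1 CPM. At 06:00 of day 12 replicate 2 of colony 2 held 39.91 CPM of LOC100576805, above the 24.13 to 25.04 CPM of the others. LOC727308 held 13.28 CPM in replicate 2 of colony 2 at 18:00 (others 5.286 to 5.808 CPM) and 3.32 CPM in replicate 1 of colony 1 at 22:00 (others 7.562 to 8.021 CPM). LOC551619 held 39.77 CPM in replicate 2 of colony 1 at 02:00, above 25.42 to 27.27 CPM.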

How the results depend on the processing

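The number of genes that met the rule was 40 with pseudocounts of 0.5 and 2, 44 and 38 with mean CPM minima of 1 and 10, and 58 with TMM scaling, 37 of them members. It moved to 124 with R2 of at least 0.3, 13 with 0.5, 126 in colony 1 alone (14 members), 275 in colony 2 alone (33 members), 23 without the 3 libraries that stand apart, and 23 without both colony 2 libraries of 10:00 (17 members), the last chosen after seeing the data. With single libraries left out it lay between 25 (without replicate 2 of colony 1 at 10:00) and 63 (without replicate 1 of colony 2 at 22:00).

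Members called between the colonies numbered 12 in edgeR (24.9% of all genes called), 14 in DESeq2 (29.9%) and 13 with RLE scaling (24.9%). They numbered 4 without the 3 libraries (12.3%), 0 with libraries summed (0.235%), and 8 to 15 with single libraries left out (20.8% to 27.4%). For colony by cosine the count was 1 without the 3 libraries (1.24% of all genes). Over the 7 time points it was 39 in DESeq2 (9.12%), 0 with summed libraries (0%) and 13 to 32 with single libraries left out (1.07% to 5.65%). It was 13 when replicate 2 of colony 1 or of colony 2 at 10:00 was missing (1.09% and 1.07%). For the common cosine it was 0 with summed libraries (0%) and 27 to 40 with single ones left out (1.82% to 10.6%). For the 2 samplings of 06:00 it was 0 in every alternative run, DESeq2 giving an adjusted p to 10 of 40 members. The cause of these changes was not tested.

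No pairing by replicate number common to all groups was seen: replicate differences of 13 groups correlated at -0.19 to 0.31, over 0.1 in 13 of 78 pairs of groups. Whether some of the groups share a batch was not tested. A replicate block gave 12 members called between colonies (24.2% of all genes), 22 over time (1.93%) and 39 by cosine (4.02%). Of 884 recomputed ranges of named members 7 moved by at least the gene's replicate SD. This limit is wide in some genes: LOC409109, with an SD of 0.668, went from 1.77 to 1.34 without the 3 libraries and counted as unmoved. In 44 of 396 settings a colony call was lost, with no sign reversed. Shallow libraries limit members under 20 CPM most.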

Other observations

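Of 257 genes with a symbol and a mean of at least 5 CPM, 3 met the same rule. Cdc37, a co-chaperone of Hsp90, had R2 of 0.529, a peak at 10.7 h and a range of 0.39 on the log2 scale. The values of uzip, which encodes a neural adhesion protein in Drosophila, were 0.414, 11.0 h and 0.75, and those of AChE-2, an acetylcholinesterase, were 0.426, 11.6 h and 0.48. The clock repressor Cry2 peaked at 22.2 h with R2 of 0.547 and a range of 2.18, and Per had R2 of 0.187, below the limit.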
